A study of Mus musculus and Homo sapiens with 40 samples.

Results

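The regions described here are 1067 binding sites of the transcription factor CEBPA that were called in p30-expressing cells and not in p42-expressing cells. They were selected on the called peaks themselves. A site of the p30 anti-CEBPA list qualified if it overlapped a p30 anti-ER peak by at least 1 bp and overlapped no peak of either p42 list, on chromosomes 1 to 19 and X. Of 31823 sites in the p30 anti-CEBPA list, 20161 were found with both antibodies and 1067 met the whole rule, which is 3.35% of the list. Over the 4 CEBPA lists together there were 63672 distinct regions. The peak calls of the p30 and p42 lists chose these sites, so their CEBPA peak heights are given as a description only.

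CEBPA is a basic leucine zipper protein that pairs with itself or a related protein and binds a short palindrome in DNA. It drives progenitors toward the granulocyte and monocyte fates and is frequently mutated in acute myeloid leukemia. N-terminal mutations remove the full-length isoform, p42, and leave the shorter p30, which keeps the DNA-binding domain and lacks part of the transactivation region. H3K27ac marks active promoters and enhancers, and H3K4me1 marks enhancers whether or not they are active.

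The cells were HPC-7, a mouse hematopoietic progenitor line with little CEBPA of its own. The cells had been transduced with a retroviral vector for either CEBPA p42-ERT2 or CEBPA p30-ERT2, with GFP as the marker for sorting. ERT2 is an estrogen receptor fragment that holds the fusion outside the nucleus until hydroxytamoxifen is given. The methods of the study give this drug for experiments with the fusions, and the sample labels do not name it. Each isoform was present in 1 transduced line, so line and isoform cannot be told apart. Anti-CEBPA and anti-ER (which recognizes the ERT2 part) were each used on 1 library per line, untreated. The H3K4me1 lists pooled 2 samples per line, untreated, and the H3K27ac lists pooled 3 samples per line, untreated or after LPS at 100 ng/mL for 2 h. Each condition had a single list, so differences have no replicate behind them and p-values were not computed. The depth is unknown from the lists. All intervals are 95% intervals that cover counting error over sites only. As a check of the cell type, 12 of 12 progenitor genes, among them Kit, Gata2, Tal1 and Lmo2, had an H3K27ac peak within 1000 bp of a start site in each of the 4 H3K27ac lists. Of 12 marker genes of other tissues only Cdh5, an endothelial cadherin, had one, in all 4 lists.

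The stretches below are 120 bases around the anti-CEBPA summit of 6 p30-only sites (GRCm39, plus strand). All 6 are among the 10 best-ranked, and they show the range of sequence found. Each site is named by the nearest protein-coding start. Capitals mark matches, on either strand, to the motifs described with the motif results.
Adam6a, first site (chr12:113541990-113542109): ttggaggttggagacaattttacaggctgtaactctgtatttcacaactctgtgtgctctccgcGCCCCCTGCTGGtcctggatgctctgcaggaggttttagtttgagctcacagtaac
Adam6a, second site (chr12:114417340-114417459): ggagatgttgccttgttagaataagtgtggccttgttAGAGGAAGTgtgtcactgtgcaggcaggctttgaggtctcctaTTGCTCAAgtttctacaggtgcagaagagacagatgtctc
Macroh2a1 (chr13:56307068-56307187): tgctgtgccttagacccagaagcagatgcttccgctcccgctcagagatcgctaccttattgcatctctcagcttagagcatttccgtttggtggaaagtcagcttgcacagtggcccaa
Vkorc1l1 (chr5:129970418-129970537): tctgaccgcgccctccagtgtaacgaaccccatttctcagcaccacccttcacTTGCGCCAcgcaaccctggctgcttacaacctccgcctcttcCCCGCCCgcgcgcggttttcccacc
Nceh1 (chr3:27269360-27269479): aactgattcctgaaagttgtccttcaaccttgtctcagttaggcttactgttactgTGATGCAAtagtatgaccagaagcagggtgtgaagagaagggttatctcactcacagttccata
Ccdc33 (chr9:58005048-58005167): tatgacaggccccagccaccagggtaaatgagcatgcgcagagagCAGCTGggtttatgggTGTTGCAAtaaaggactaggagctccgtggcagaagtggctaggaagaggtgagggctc

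The first Adam6a site, the best-ranked of all 1067, held a CTCF match and no CEBP match. The second, 909872 bp from the Adam6a start and elsewhere in the immunoglobulin heavy chain region, held the CEBP palindrome (TTGCTCAA) and a PU.1 match. The Vkorc1l1 promoter site held an SP/KLF match and a CEBP match with 1 mismatch (TTGCGCCA). The Nceh1 site held the CEBP:ATF4 composite (TGATGCAA). The Ccdc33 site held the CEBP:AP1 composite (TGTTGCAA) and an E-box (CAGCTG). The Macroh2a1 stretch held none of the motifs searched.

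The p30-only sites were weak peaks. Fold enrichment over the local background had a median of 5.90 by anti-CEBPA (2.94 to 15.8) and 5.67 by anti-ER (2.28 to 21.0). The medians were 11.7 and 11.8 at the 13380 p30 sites that lay in both p42 lists. Ranked by q-value in the p30 anti-CEBPA list, where 0% is the strongest peak, their median rank was 75.9% and the best was 15.5%. None of them was in the strongest 10% of that list, 3 were in the strongest 25%, and 551 (51.6%) were in the weakest 25%. The 5714 sites that lay in just 1 p42 list were intermediate with anti-CEBPA, at a median rank of 49.9%. With anti-ER those sites had a median rank of 60.2%, close to the 65.1% of the p30-only sites. Of the 5714, 4806 lay only in the p42 anti-CEBPA list, which held 47489 peaks. The remaining 908 lay only in the p42 anti-ER list, which held 23210 peaks, against 33952 in the p30 anti-ER list. These values come from peaks that the rule had already sorted and carry no test.

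**Figure D1:**
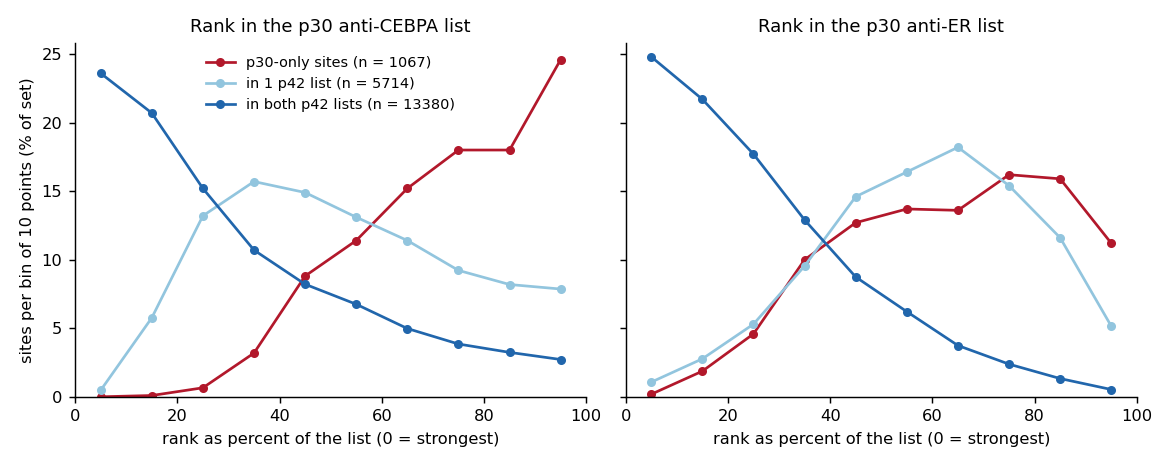
Share of each set of p30 sites (% of the set per bin of 10 points) against the rank in the p30 anti-CEBPA list (left) and the p30 anti-ER list (right), for the 1067 p30-only sites, the 5714 sites in 1 p42 list and the 13380 sites in both. The p30-only sites crowd toward the weak end of the anti-CEBPA list, with 51.6% in its weakest 25%, and the sites in both p42 lists toward the strong end.

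By the rule no p30-only site overlapped a p42 peak, and the gaps to the nearest one ran from 2 to 306300 bp. They were not compared with the gaps of other regions. The median gap to the nearest p42 peak of either antibody was 9529 bp, 111 sites (10.4%) had one within 1000 bp, and 360 (33.7%) within 5000 bp. The members just inside the rule were sites near Nfatc3, Snx18 and Cited2, whose gaps were 2 bp, 74 bp and 83 bp. Just outside it, 3 sites overlapped a p42 peak by 15 to 43 bp, among them sites near Nck2 (37 bp) and Mtmr7 (43 bp). Folds on both sides of this border were alike: 4.25 to 5.59 with anti-CEBPA at the members, and 3.27 to 6.26 at the non-members. The sites were spread over all chromosomes used, from 4.12% of the double-antibody sites on chromosome 17 to 7.46% on chromosome 11. Few were grouped together, and 110 (10.3%) had another p30-only site within 50000 bp.

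The p30-only sites lay in acetylated chromatin more often than other p30 sites. Of the 1067 summits, 571 (53.5%, 95% Wilson interval 50.5 to 56.5) were inside an H3K27ac peak of untreated p30-expressing cells. Among all 20161 p30 sites found with both antibodies this share was 31.3%. The p30-only share exceeded that of the 19094 other sites (30.1%) by 23.4 percentage points (20.3 to 26.5). Acetylation at these sites was about as frequent in p42-expressing cells, where the CEBPA lists had no peak at them: 564 summits (52.9%) were inside H3K27ac of untreated p42-expressing cells, against 33.8% of all double-antibody sites. With LPS, 585 (54.8%) were inside H3K27ac in p30- and 521 (48.8%) in p42-expressing cells, against 32.0% and 32.3% of all double-antibody sites. At 470 sites (44.0%) H3K27ac was called in all 4 lists, and at 416 (39.0%) in none, against 25.5% and 60.8% of all double-antibody sites.

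H3K4me1 showed a similar order. In p30-expressing cells 346 summits (32.4%) were inside an H3K4me1 peak, and in p42-expressing cells 242 (22.7%), against 20.9% and 14.2% of all double-antibody sites. The p42-only sites were at 16.7% and 22.7%. By anti-CEBPA rank the p30-only share in p30-expressing cells was 31.5% (40 to 60%), 30.2% (60 to 80%) and 36.5% (80 to 100%). At the same ranks the sites in both p42 lists were no lower, at 33.2%, 35.5% and 38.9%. Both marks were called at 243 sites (22.8%) in untreated p30-expressing cells, against 14.2% of all double-antibody sites. Neither mark was called in any of the 6 lists at 334 p30-only sites (31.3%), against 56.7% of the other p30 sites (difference -25.4 points, -28.2 to -22.4).

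**Figure D2:**
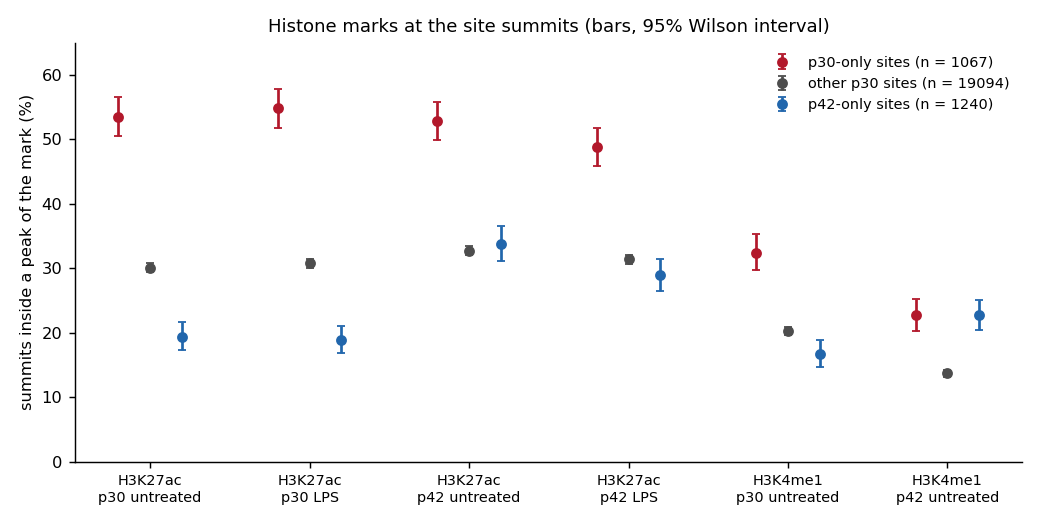
Share of summits (%) inside a peak of each histone mark list, for the 1067 p30-only sites, the 19094 other p30 sites found with both antibodies and the 1240 p42-only sites chosen by the mirrored rule. Bars are 95% Wilson intervals; p30-only sites sit between 48.8% and 54.8% in the 4 H3K27ac lists, and the other p30 sites between 30.1% and 32.7%.

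Acetylation moved with the strength of the sites, in a different way for each antibody. By anti-CEBPA rank weaker sites were acetylated more often: among the other p30 sites the share inside H3K27ac of untreated p30-expressing cells was 23.9% in the strongest 20% of the anti-CEBPA list and 43.6% in the weakest 20%. Within the p30-only sites it was 56.1% (41.0 to 70.1) of the 41 sites at ranks of 20 to 40%, 45.8% at 40 to 60%, 48.9% at 60 to 80% and 60.7% (56.1 to 65.0) at 80 to 100%. When the other sites were weighted to the anti-CEBPA ranks of the p30-only sites, their share was 39.3%, and when weighted also to the p30-only promoter share it was 41.8%, both below 53.5%. Weighted to the anti-ER ranks it was 18%. The 2 kinds of other sites differed, at 19.3% of the sites in 1 p42 list and 34.7% of those in both. At the same anti-CEBPA ranks the sites in both p42 lists came close to the p30-only sites, with 44.5% (42.4 to 46.7) at 40 to 60%, 48.4% (45.6 to 51.3) at 60 to 80% and 52.9% (49.5 to 56.4) at 80 to 100%. For H3K27ac of untreated p42-expressing cells they were at 55.0% against 48.3% of the p30-only sites at 60 to 80%, and at 62.4% against 60.7% at 80 to 100%. Where H3K27ac was called, its peaks were about as high at the p30-only sites, with a median fold of 15.2 in untreated p30-expressing cells against 13.8 at the other sites.

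The comparison of the 2 lines asks whether chromatin at these sites differed where CEBPA peaks did. For untreated H3K27ac it did not differ beyond counting error. At 52 p30-only sites the mark was called in p30-expressing cells only and at 45 in p42-expressing cells only, a difference of 0.656 points (-1.15 to 2.46). At the other p30 sites the difference was -2.60 points (-2.99 to -2.2), so it leaned to p42-expressing cells there. The 1240 p42-only sites showed a much wider gap in the direction of their own line: 33.8% were inside H3K27ac of untreated p42-expressing cells and 19.4% in p30-expressing cells, a difference of -14.4 points (-16.7 to -12.2). Over all 18088 p42 sites found with both antibodies the difference was -5.71 points (-6.19 to -5.22). Over all 20161 p30 ones it was -2.43 points (-2.81 to -2.04), so these backgrounds differed as well. The intervals of the p30-only and p42-only differences did not overlap. Where called, H3K27ac peaks were lower at the p42-only sites. Their median folds were 4.39 in untreated p30- and 6.06 in untreated p42-expressing cells, against 15.2 and 15.4 at the p30-only sites. The part of peak height in this contrast was not tested.

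The height of the H3K27ac peaks gave no single direction between the untreated lines at the p30-only sites. At 519 of them the summit lay in an H3K27ac peak of both lines. The peak was higher in p30-expressing cells at 344 (66.3%, 62.1 to 70.2) by rank as a percentage of each list, at 293 (56.5%, 52.2 to 60.7) by place counted from the best peak, and at 228 (43.9%, 39.7 to 48.2) by fold. The untreated lists held 139190 peaks in p30- and 129345 in p42-expressing cells, and a longer list lowers the percentage rank of any peak. With LPS, where the lists held 142385 and 107114 peaks, the 3 shares of 497 sites were 85.7%, 59.4% and 74.4%. The other p30 sites, set against the same lists, were lower by each measure: untreated they were at 2099 of 5243 (38.7 to 41.4%), 32.6% (31.3 to 33.8) and 24.7% (23.6 to 25.9), and with LPS at 58.7%, 31.7% and 46.5%. The p42-only sites were at 19.7%, 14.6% and 12.2% of 213 sites untreated. The comparison by place and by fold was added after the data were seen.

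H3K4me1 was called at more of the sites in p30-expressing cells. It was present only there at 141 p30-only sites and only in p42-expressing cells at 37, a difference of 9.75 points (7.37 to 12.1). The p30 H3K4me1 list was also the longer one, with 168028 peaks against 134650. The other p30 sites differed in the same direction, by 6.61 points (6.10 to 7.12), and those of them in both p42 lists by 8.04 points (7.38 to 8.70), an interval that overlaps that of the p30-only sites. With the same number of best-ranked H3K4me1 peaks from each line the p30-only difference was 9.0 points (6.62 to 11.4). At the p42-only sites the difference was -5.97 points (-8.13 to -3.80).

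LPS is a bacterial component that activates inflammatory signaling. In p30-expressing cells 51 p30-only sites were inside H3K27ac with LPS only and 37 untreated only, a difference of 1.31 points (-0.409 to 3.03) that did not exceed counting error. In p42-expressing cells 21 were inside with LPS only and 64 untreated only, a difference of -4.03 points (-5.71 to -2.35). The p42 list with LPS was the shortest, at 107114 peaks, and its part in this loss was not tested. With the same number of best-ranked peaks from each list the p42 difference was -3.28 points. When any overlap of a site with an H3K27ac peak counted, in place of the summit, it was -1.03 points (-2.58 to 0.516). Counted that way the difference in p30-expressing cells was 2.34 points (0.802 to 3.88), beyond counting error. At the other p30 sites the difference in p42-expressing cells was -1.31 points (-1.68 to -0.952). At the p42-only sites it was -4.84 points (-6.86 to -2.82), so a loss of this size was not particular to the p30-only sites. Between the lines after LPS, the p30-only sites were inside H3K27ac more often in p30- than in p42-expressing cells, by 6.0 points (4.09 to 7.91). The p30 list with LPS was the longer one, at 142385 peaks. At an equal number of best-ranked peaks per list the difference between the lines was 5.25 points (3.33 to 7.17). For the other p30 sites it was -0.623 points (-1.02 to -0.231), with opposite signs in their 2 kinds. Those in 1 p42 list were at 0.823 points (0.315 to 1.33) and those in both at -1.24 points (-1.76 to -0.725).

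**Figure D3:**
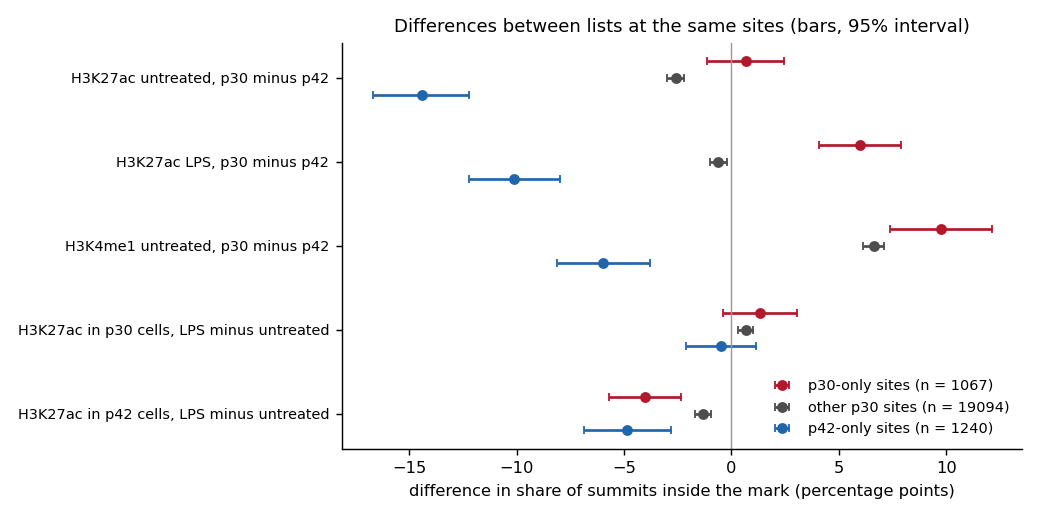
Difference in the share of summits inside a mark (percentage points) between pairs of lists at the same sites, for p30-only, other p30 and p42-only sites, with 95% intervals. For untreated H3K27ac the p30-only difference is 0.656 points and the p42-only difference -14.4 points, and for H3K4me1 they are 9.75 and -5.97 points.

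The p30-only sites were nearer to genes than other p30 sites. A promoter here runs from 1000 bp before to 100 bp after the start of any annotated transcript. In all, 242 p30-only summits (22.7%, 20.3 to 25.3) were in a promoter, against 13.5% of all double-antibody sites. They exceeded the other p30 sites (13.0%) by 9.65 points (7.19 to 12.3) and the p42-only sites (10.2%) by 12.4 points (9.42 to 15.5). Of the rest, 496 (46.5%) were in introns, 247 (23.1%) were intergenic and 82 (7.69%) were in exons. The median distance to the nearest protein-coding start was 11371 bp, against 21238.5 bp for the other p30 sites. The p42-only sites were close to the p30-only sites in this, at a median of 13767.5 bp. Of the p30-only sites 21.0% were over 50 kb from such a start, against 21.1% of the p42-only and 34.3% of the other p30 sites. Weighted to the anti-CEBPA ranks of the p30-only sites, 14.7% of the others were in promoters. The base composition moved with this: the median GC content of 200 bp was 47.0% at the p30-only sites and 42.5% at the others.

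Both the promoter and the remaining sites contributed to the acetylation. Of the 242 promoter sites 77.3% (71.6 to 82.1) were inside H3K27ac of untreated p30-expressing cells, against 61.5% of the 2488 promoter sites among the others. Away from promoters the shares were 46.5% (43.2 to 50.0) of 825 p30-only sites and 25.4% (24.7 to 26.1) of 16606 others. The excess of H3K4me1 in p30- over p42-expressing cells was 10.5 points (7.70 to 13.4) away from promoters and 7.02 points (3.07 to 11.0) in them. At the other p30 sites it was 6.32 points (5.77 to 6.86) and 8.56 points (7.12 to 10.0), so the wider excess at the p30-only sites was seen away from promoters.

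Fewer p30-only sites carried the sequence that CEBPA binds. The CEBP palindrome was searched as TTGCNNAA or TTNNGCAA on both strands in 200 bp around the summit. It was present at 374 p30-only sites (35.1%, 32.2 to 38.0), against 56.2% of all double-antibody sites. Windows 5000 bp to either side of the same summits held it in 8.39% (7.29 to 9.64), so the p30-only sites were above their surroundings. The other p30 sites held it at 57.4%, so the difference was -22.3 points (-25.2 to -19.3). The p42-only sites, also weak peaks, held it at 50.0%, and their difference from the p30-only sites was -14.9 points (-18.9 to -10.9). A closer form of the palindrome, TTGCGCAA with at most 1 mismatch, was present at 22.6% of p30-only and 46.7% of the other sites. The p42-only sites held it at 28.6% (difference -6.04 points, -9.57 to -2.47). This form was chosen after the data were seen and partly overlaps the first.

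Palindromes were densest at the summit. In the 20 bp centered on it there were 13.3 matches per 100 p30-only sites, against 37.0 at the sites in both p42 lists, and 230 to 250 bp before it 0.469 and 0.807. In the central 20 bp the p42-only sites had 15.2 per 100, close to the p30-only sites, and the sites in 1 p42 list 24.8. Within the p30-only sites the palindrome share was 36.6% (23.6 to 51.9) of 41 sites at ranks of 20 to 40%, 43.1% (36.6 to 49.7) at 40 to 60%, 35.3% at 60 to 80% and 31.0% (26.9 to 35.4) at 80 to 100%. In the same classes the other p30 sites held it at 55.5%, 49.5%, 47.1% and 43.8%. Weighted to the anti-CEBPA ranks of the p30-only sites the others reached 46.2%, and weighted to the anti-ER ranks 53.1%, both above 35.1%.

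**Figure D4:**
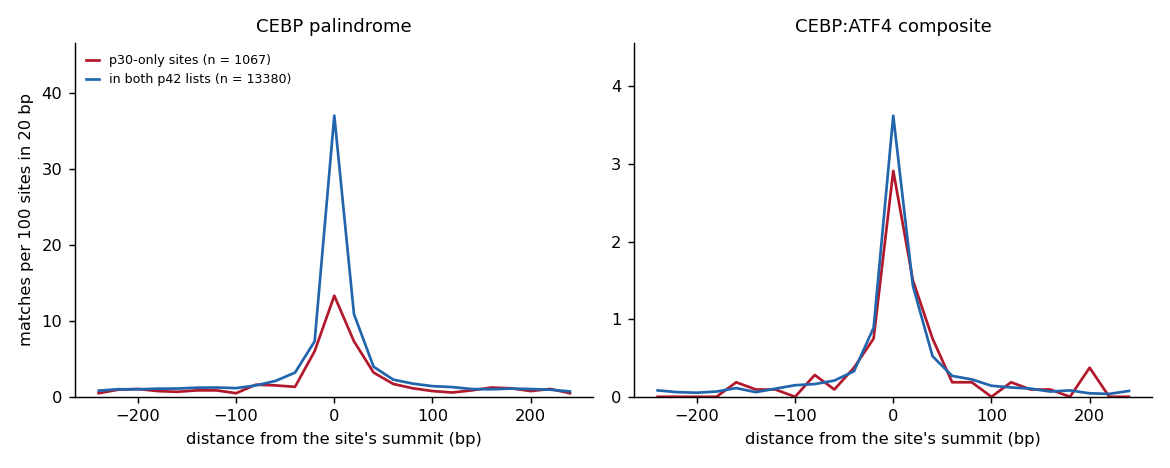
Matches per 100 sites in bins of 20 bp against the distance from the anti-CEBPA summit (bp), for the CEBP palindrome (left) and the CEBP:ATF4 composite (right), at p30-only sites and at p30 sites in both p42 lists. The palindrome peak at the summit is 13.3 at p30-only and 37.0 at shared sites, while the composite reaches 2.91 matches at the p30-only summits. The p42-only sites, not drawn, have 15.2 palindrome matches there.

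Of the composite elements, CEBP:ATF4 did not differ from the other p30 sites beyond counting error and CEBP:AP1 was less frequent. CEBP:ATF4 (TGATGCAA), bound by dimers of a C/EBP protein with the stress factor ATF4, was present at 75 p30-only sites (7.03%). The other p30 sites held it at 8.23% (difference -1.20 points, -2.64 to 0.537), and the flanking windows at 0.422%. CEBP:AP1 (TGTTGCAA), a composite with a site of AP-1 proteins, was present at 40 (3.75%), against 5.28% of the others (difference -1.53 points, -2.57 to -0.179) and 0.422% of the flanks. The p42-only sites held CEBP:AP1 at 6.21% (difference -2.46 points, -4.24 to -0.672). Counting the palindrome and both composites, 480 p30-only sites (45.0%) had a match and 587 (55.0%) had none. Of the shared sites in both p42 lists, 30.1% had none.

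Some elements of other factors, but not all, were more frequent than at the other p30 sites. PU.1 (AGAGGAAGT), the element of the master regulator of myeloid cells, was present at 36 sites (3.37%), 1.61 points (0.661 to 2.88) above the others (1.76%) and above the flanks (0.469%). RUNX (TGTGGTT), the element of the factors that include Runx1, was present at 111 sites (10.4%), 3.51 points (1.77 to 5.51) above the others (6.90%), with 6.0% and 5.16% in their flanks. SP/KLF (GGGCGGG), an element of GC-rich promoters, was present at 60 (5.62%), 3.42 points (2.17 to 4.98) above the others (2.2%), with 1.69% and 1.17% in their flanks. The NF-kB element was present at only 18 sites (1.69%), 1.03 points (0.403 to 2.00) above the others. CTCF was present at 24 (2.25%), 1.16 points (0.410 to 2.24) above the others, and the flanks held it at 2.01%. AP-1 (TGANTCA) did not differ beyond counting error, at 7.69% of p30-only and 7.93% of the other sites (difference -0.249 points, -1.75 to 1.54). The E-box (CAGCTG) was at 11.7% and 8.91% (difference 2.80 points, 0.961 to 4.91), with 9.75% and 7.94% in the flanks of the same sites, and the NFIL3 element (TTACGTAA), which C/EBP-related factors bind, at 1.22% and 2.56% (-1.34 points, -1.90 to -0.461). The element of GATA factors (AGATAAG) was at 2.62% and 2.95%, CRE (TGACGTCA) at 0.469% and 0.251%, ETS (CCGGAAGT) at 0.562% and 0.361%, and a control, the AP-1 letters in reverse order (ACTNAGT), at 5.15% and 5.55%. The estrogen response element had no match, which allows a share of up to 0.359%. At the p42-only sites the E-box was at 10.9% and NFIL3 at 0.887%. The p30-only sites did not differ from these beyond counting error (0.828 points, -1.75 to 3.45, and 0.331 points, -0.527 to 1.27). PU.1 (0.887%), RUNX (6.69%), SP/KLF (1.29%), NF-kB (0.323%) and CTCF (0.968%) were less frequent at the p42-only than at the p30-only sites.

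These elements fell in different places. SP/KLF was found at 17.8% of the 242 promoter sites and 2.06% of the 825 others, and 30.4% of the windows of 200 bp before all 168334 annotated transcript starts of protein-coding genes held it. Of those windows 6.07% held the CEBP palindrome, 2.89% RUNX, 0.677% PU.1 and 4.06% AP-1. RUNX was found at 11.9% of the p30-only sites away from promoters and 5.37% in promoters, and PU.1 at 4.12% and 0.826%. Away from promoters the other p30 sites held RUNX at 6.93%, PU.1 at 1.70% and SP/KLF at 1.07%. In promoters they held RUNX at 6.67% and PU.1 at 2.21%, both above the p30-only sites, and SP/KLF at 9.81%. The excess of RUNX and PU.1 was thus seen away from promoters only. Weighted to the anti-CEBPA ranks of the p30-only sites, the other sites held RUNX at 8.08%, PU.1 at 2.37%, SP/KLF at 2.14% and NF-kB at 0.692%. Among all 8-letter words, those with the widest gap between the p30-only windows and their flanks were led by the CEBP form TTGCACAA (9.47% of p30-only sites, 0.562% of flanks, 20.9% of the other sites). The CEBP:ATF4 letters TGATGCAA and the CEBP form ATTGTGCA (5.81%, 0.234% and 13.7%) came next. Then came ACAGGAAG, a word with the GGAA core of ETS factors, at 7.22%, 1.73% and 3.94%.

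**Figure D5:**
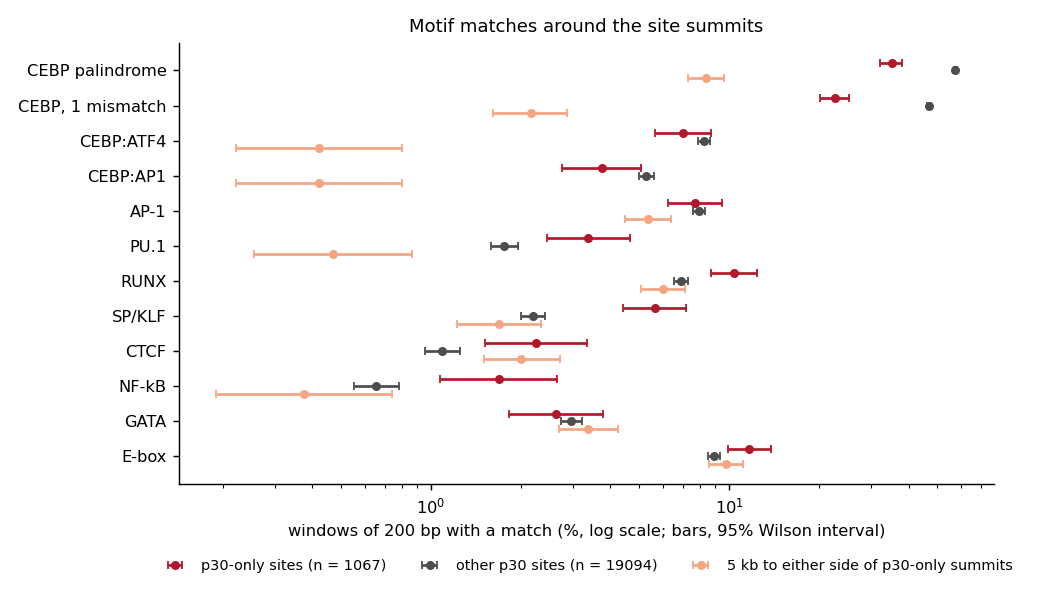
Share of 200-bp windows with a match to each motif (%, log scale) at p30-only summits, at the other p30 summits and 5000 bp to either side of the p30-only summits, with 95% Wilson intervals. The CEBP palindrome is at 35.1%, 57.4% and 8.39%, and RUNX, PU.1 and SP/KLF lie above the other p30 sites.

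Sites with and without a CEBP match differed in their surroundings. Of the 480 p30-only sites with a palindrome or composite, 47.1% (42.7 to 51.6) were inside H3K27ac of untreated p30-expressing cells and 18.5% (15.3 to 22.3) in promoters. Of the 587 without, 58.8% (54.7 to 62.7) were acetylated and 26.1% (22.7 to 29.8) in promoters. The shares inside H3K27ac of untreated p42-expressing cells were 45.6% and 58.8%. The sites shared with both p42 lists had the same order, with 31.0% acetylated among those with a match and 43.4% among those without. H3K4me1 in p30-expressing cells did not differ between the 2 kinds of p30-only sites beyond counting error, at 32.9% (28.9 to 37.2) and 32.0% (28.4 to 35.9).

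Of the 10 best-ranked sites 4 were in promoters, and all 4 were acetylated in both untreated lines. At Nab1, which encodes a corepressor of EGR factors, the site lay 27 bp from the start, with folds of 12.1 by anti-CEBPA and 11.6 by anti-ER. Its H3K27ac peak had folds of 116.5 untreated and 110.1 with LPS in p30-expressing cells, and 99.6 and 79.0 in p42-expressing cells. At Becn1, which encodes the autophagy protein Beclin 1, the site lay 4 bp from the start. H3K27ac folds there were 35.9 and 50.7 in p30-, and 38.9 and 40.9 in p42-expressing cells, untreated and with LPS. The Vkorc1l1 site had H3K27ac folds of 15.7 and 14.4 in p30-, and 18.2 and 19.4 in p42-expressing cells. The Sacm1l site, near the gene of a phosphoinositide phosphatase, was in H3K27ac of both untreated lines (12.9 and 18.6) and of neither with LPS. The fifth promoter site by rank, at Dcaf11, had H3K27ac folds from 70.1 to 90.3 over the 4 lists. All 5 promoter sites were inside H3K27ac of untreated p42-expressing cells, where the CEBPA lists had no peak at them.

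The other best-ranked sites lay away from promoters. The first Adam6a site (chr12:113541900-113542206) had a fold of 15.8 with anti-CEBPA and 5.09 with anti-ER, and no histone mark in any of the 6 lists. A site 16069 bp from the start of Macroh2a1, which encodes the histone variant macroH2A1, had folds of 12.1 and 15.8, and H3K27ac folds from 7.28 to 20.7 over the 4 lists. An exonic site near Il16, the gene of the cytokine interleukin 16, was inside all 6 lists, with H3K27ac folds from 19.4 to 44.3. The Ccdc33 site, in an intron, had folds of 10.7 and 6.30 and no mark.

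At 41 p30-only sites H3K27ac was called in untreated p30-expressing cells and in neither p42 list. Over all double-antibody sites this pattern was at 1.64%. The best-ranked were the second Adam6a site (chr12:114417286-114417555; H3K27ac fold 4.57), Nceh1 (2.58), Tedc1 (5.12), Zfp738 (3.55) and Hivep3 (3.15). These H3K27ac folds were all under the p30-only median of 15.2. The second Adam6a site also lay in an H3K4me1 peak of p30-expressing cells alone (fold 5.93), in the best-ranked 0.934% of that list. Nceh1 encodes a neutral cholesterol ester hydrolase, and Hivep3 a zinc finger protein that binds enhancer elements. Tedc1 had the strongest anti-ER peak of the 5, at a fold of 19.8.

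At 51 sites H3K27ac was called in p30-expressing cells with LPS and not untreated, a pattern of 3.51% of all double-antibody sites. The best-ranked were near Nedd9, Cnr2, Irf8, Pdcl3 and Wnt7b, with H3K27ac folds of 8.86, 3.66, 3.43, 4.42 and 2.72 after LPS. Nedd9, a scaffold of adhesion signaling, and Cnr2, the cannabinoid receptor of immune cells, also had H3K27ac in untreated p42-expressing cells (8.77 and 2.94). The site near Irf8, a determinant of the monocyte fate, lay 16825 bp from its start in the promoter of another annotated transcript. It had no H3K27ac in p42-expressing cells and H3K4me1 in both lines (4.43 and 4.67).

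The p30-only sites were nearest to 978 of 21584 protein-coding genes, which is 4.53% of them. Of these genes, 897 had 1 such site, 74 had 2 and 7 had 3 or more. For each list of genes the number nearest to any of the 20161 double-antibody sites is given as well, since listed genes had many sites of any kind; over all genes it was 8740 (40.5%). Nearness along the chromosome does not show which gene a site acts on.

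Among transcription factors of the myeloid fate, 6 of 22 genes (27.3%) were nearest to a p30-only site, and 22 of 22 to some double-antibody site. They included Irf8, Zeb2, Myb, Id2 and Etv6. The Id2 site, 303617 bp from its start, was in none of the 6 mark lists. Of the stem and progenitor factors 4 of 19 (21.1%) were nearest to one, namely Lmo2, Runx1, Ikzf1 and Ikzf2, and 14 of 19 to any double-antibody site. Zeb2, a repressor that acts in several blood lineages, had 2 p30-only sites, both inside H3K27ac of untreated p42- and not of untreated p30-expressing cells. The Myb site, 25819 bp from its start, and the Lmo2 site, in an intron 23479 bp away, were acetylated in both untreated lines. The Ikzf1 site, near the gene of the lymphoid and myeloid regulator Ikaros, had H3K27ac folds of 29.1 in untreated p30- and 13.7 in untreated p42-expressing cells. Runx1, a regulator of blood stem cell formation, had 2, of which the one 226129 bp away was acetylated in untreated p30-expressing cells and not in p42-expressing cells.

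Of the AP-1 family 3 of 17 (17.6%) were nearest to a p30-only site, and 14 of 17 to any double-antibody site. Jun, a subunit of AP-1, was nearest to 3 p30-only sites, 45821 to 195973 bp from its start, with anti-CEBPA folds from 4.66 to 7.80. None of the 3 was inside H3K27ac of untreated p30-expressing cells, and 1 was inside it in untreated p42-expressing cells. With LPS that site was inside H3K27ac of p30-expressing cells (fold 6.43) and not of p42-expressing cells. It was inside H3K4me1 of p30-expressing cells only (fold 6.94). The exonic site of Mafg, a small Maf protein, was 2328 bp from its start and acetylated in both untreated lines (folds 87.7 and 125.2). Jdp2, a repressor that dimerizes with Jun, had one in an intron with an anti-CEBPA fold of 5.06, acetylated untreated in p42-expressing cells only. With LPS this site was acetylated in both lines (folds 9.92 in p30- and 7.88 in p42-expressing cells). No gene of the list of 10 C/EBP family members and regulators was nearest to a p30-only site, although 7 of 10 were nearest to a double-antibody site.

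Of the growth factor and cytokine receptors 3 of 20 (15.0%) were nearest to a p30-only site, namely Kit, Ifngr1 and Csf2rb2, and 17 of 20 to any double-antibody site. Kit, the receptor of stem cell factor, had 2 such sites at 142845 and 153999 bp, with anti-ER folds of 14.0 and 6.47. H3K27ac was called at both in all 4 lists, and its peaks were higher in p30-expressing cells: untreated folds were 31.5 in p30- and 13.8 in p42-expressing cells at the nearer site, and 44.7 and 6.01 at the farther one. The 3 sites of Ifngr1, a chain of the interferon gamma receptor, were all inside H3K27ac of both untreated lines. Csf2rb2, a beta chain of the interleukin 3 receptor, had one in its promoter, 80 bp from the start, with folds of 6.32 and 6.37.

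Few genes on the inflammatory lists were nearest to a p30-only site, at shares not far from the 4.53% of all genes. Of 27 cytokines and chemokines 2 (7.41%) were, Ccl2 and Csf2, and 18 of 27 were nearest to any double-antibody site. The Csf2 site, 25522 bp from its start, held the CEBP palindrome and was in none of the 6 mark lists. Of 31 genes of Toll-like receptor and NF-kB signaling none was, and 19 of 31 were nearest to some double-antibody site. Of 19 neutrophil granule and effector genes 1 was, Fcgr3, an Fc receptor gene, and 10 of 19 were nearest to any double-antibody site. Of 21 stress response genes 3 (14.3%) were, namely Ddit4, an inhibitor of mTOR signaling, Gadd45g and Sesn2, and 18 of 21 were nearest to any double-antibody site. The Sesn2 site held the CEBP:ATF4 composite and lay 584 bp from the start. Of 18 genes reported as p30 targets or tied to leukemia 4 (22.2%) were, namely Cd69, Ptch1, Cdk6 and Ccnd2, and 15 of 18 were nearest to any double-antibody site. Ccnd2, a D-type cyclin, had 2 p30-only sites. One was in its promoter, 1 bp from a start. The other lay 1614 bp from a start, in the promoter of another annotated transcript. Both were acetylated in both untreated lines, with the same H3K27ac folds (28.7 in p30- and 23.2 in p42-expressing cells). With LPS the first was inside H3K27ac of neither line. The exonic site of Cdk6, a cell cycle kinase gene, was 1992 bp from its start and held the CEBP:ATF4 composite. None of 17 lymphoid genes was nearest to a p30-only site, and 3 of 17 were nearest to any double-antibody site.

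The 7 genes nearest to 3 or more p30-only sites were Satb1, Arhgef3, Cdyl, Ier5, Ifngr1, Jun and Nedd9. Satb1, a chromatin organizer of lymphoid and stem cells, had 4 of its 20 double-antibody sites in the p30-only set, 30488 to 325458 bp from its start. Of these 4, 3 were inside H3K27ac of untreated p30- and 2 inside that of untreated p42-expressing cells. Ier5, an immediate early gene, had 3 of 5 in the set, the highest share of the 7, with anti-CEBPA folds from 5.52 to 8.80. Arhgef3 had 3 of 8, all acetylated in both untreated lines and all within 15038 bp of its start. Nedd9 had 3 of 12, none acetylated in untreated p30- and 2 in untreated p42-expressing cells. In these 7 genes the p30-only sites thus stood beside 2 or more further double-antibody sites that were also called in p42-expressing cells.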

How the data were processed

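ChIP-seq peak lists of HPC-7 cells expressing p42 or p30 were used, 10 in all; 1 list of another factor was not analysed here. The authors trimmed reads with Trim Galore 0.6.6, aligned them with Bowtie2 to mm39 (GRCm39), left out duplicates marked by Picard and called peaks with MACS2 against input. The H3K27ac lists pooled 3 libraries and the H3K4me1 lists 2. The deposited lists give the fold enrichment at the summit and the p-value and q-value as −log10, with no counts. The anti-CEBPA lists do not carry the no-model mark of the others, so the calling settings may have differed.

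Peaks on chromosomes 1 to 19 and X were ranked within each list by −log10 q, then −log10 p, then fold. A mark was counted at a site where its peak held the anti-CEBPA summit. Motifs were searched in GRCm39 in 200 bp around the summit and in windows 5000 bp to either side. Intervals are Wilson (shares), Newcombe (differences between sets) or for paired shares (lists at the same sites), all at 95%. Other p30 sites were weighted to the p30-only sites' deciles of rank. Named sites were the 10 best-ranked, the 5 best-ranked in promoters, the 5 with H3K27ac in untreated p30- and no p42-expressing cells, the 5 with H3K27ac in p30-expressing cells after LPS only, and up to 30 sites nearest to listed genes. Genes nearest to 3 or more sites, and the CEBP motif with 1 mismatch, were chosen after the data were seen. The sites and lists were chosen with earlier results of these data known. Alternatives changed the q threshold, overlap, list length, motif window and promoter. The tools were matplotlib 3.10.9, SciPy 1.17.1, pandas 2.3.3, NumPy 2.4.6 and Python 3.11.15, and the readers and overlap steps were tested on simulated data.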

Additional observations from a re-analysis of the deposited data

Results flagged for a closer look

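The effect of LPS on the share of p30-only sites inside H3K27ac had opposite signs in the 2 lines. It was 1.31 points (-0.409 to 3.03) in p30-expressing cells, an interval that includes 0, and -4.03 points (-5.71 to -2.35) in p42-expressing cells. With 1 pooled list per condition this contrast of the lines was not tested. The p42 list with LPS was the shortest of the 4, with 107114 peaks against 129345 untreated, and at an equal number of best-ranked peaks per list the values were 1.03 and -3.28 points. When any overlap with an H3K27ac peak counted they were 2.34 (0.802 to 3.88) and -1.03 (-2.58 to 0.516). The other p30 sites showed the same signs, at 0.660 and -1.31 points. The p42-only sites were at -0.484 points (-2.11 to 1.14) in p30- and -4.84 points (-6.86 to -2.82) in p42-expressing cells.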

How the results depend on the processing

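Of 122 values under alternative settings, 107 stayed within the interval of the reported value or, for counts of sites, within 1.5 times of it. The share of p30-only sites whose H3K27ac peak was higher in untreated p30- than p42-expressing cells, 66.3% by percentage rank, was 56.5% by place in the list and changed direction to 43.9% by fold. With LPS it went from 85.7% to 59.4% and 74.4%. Percentage ranks favor the longer list by construction. No other value whose interval excluded 0 changed direction. The number of p30-only sites ranged from 757 to 1124. Requiring a q under 1e-05 in both p30 lists gave H3K27ac shares of 50.3% in untreated p30- and 48.7% in untreated p42-expressing cells. Counting any overlap with the H3K27ac peak gave 61.6% and 60.7%, and LPS differences of 2.34 points in p30- and -1.03 points in p42-expressing cells. The CEBP palindrome share was 38.3% with q under 1e-05 in all 4 lists, 29.6% in a window of 100 bp and 39.9% in one of 400 bp. Promoters taken as 2500 bp to either side held 43.1% of the sites, 14.1 points above the other p30 sites. With the same number of best-ranked CEBPA peaks from each line, the H3K27ac excess over the other p30 sites was 19 points. Alternatives for the LPS values in p42-expressing cells, the LPS difference between lines and the differences from the other p30 sites were added after the data were seen. No paired analysis was possible because each list was one library or a pool, so the replicate numbers could not be matched, and for the same reason leaving out a replicate was not run. Weak sites that fell just under the calling threshold in p42-expressing cells could not be told from absent ones at the unknown depth of these lists.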
